A study of Macaca mulatta with 5 samples.

Results

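The genes described here encode enzymes and complexes that write, read, erase or move marks on DNA and histones. They were chosen by symbol alone, as every gene with a probe set named for a DNA methyltransferase or TET dioxygenase, a Polycomb complex 2 subunit, a CBX reader, a histone methyltransferase (KMT, SETD, PRDM, PRMT), a demethylase (KDM), an acetyltransferase (KAT), a deacetylase (HDAC, SIRT) or a remodeller (SMARC, CHD). DNMT3B was left out of the set. The rule took 101 of 14132 named genes, and these 101 genes had 219 probe sets. Each gene is given by its brightest probe set. The 4 katanin family genes KATNAL1, KATNAL2, KATNBL1 and KATNIP, entered through the spelling of their symbols and belong to a family that severs microtubules.

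Total RNA came from rhesus macaque embryonic stem cells of line 366.4 at 5 stages of a culture directed towards serotonin neurons, the hindbrain neurons that make serotonin. ESC were undifferentiated cells at passage 13, kept on mouse embryonic fibroblasts, and EB were embryoid bodies collected after 6 to 8 days. N1 were spheres after 7 to 9 days in a medium supplemented with N2, N2 (the stage) were cells expanded for 7 to 9 days with added FGF4, and N3 were cells maturing on a growth factor reduced substrate once FGF4 had been withdrawn. Every stage was 1 array of 1 cell line, so no difference has a replicate check and no test, standard error or p-value is given.

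DNA methyltransferases place methyl groups on cytosine and TET enzymes oxidise them. Polycomb complex 2 methylates histone H3 at silenced developmental genes, CBX proteins read methylated histones, and acetyltransferases and deacetylases set histone acetylation. Remodellers of the SWI/SNF (BAF) and CHD families slide or evict nucleosomes, and BAF complexes are known to exchange subunits as neural progenitors become neurons.

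Values are array signals on a linear scale, rescaled to a common trimmed mean of 500 on each array. A signal under 100 was treated as 100, the floor, in any ratio, so that where 1 of the 2 signals was under it the ratio is only a bound, written "at least". Comparisons use genes with at least 1 of their 2 signals at 100 or more, called measured here, and a gene was called when its signals differed at least 2-fold. Signals are not compared between genes, since each probe set has its own response. Fewer cells of a type and less RNA per cell cannot be told apart in such cultures.

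Of 4 measured markers of undifferentiated cells, 3 were at least 2-fold lower in N3 than in ESC and 1 was higher. POU5F1, the pluripotency factor, had a signal of 28621 in ESC and 14.7 in N3, whereas NANOG, another one, had 1047 and 2155. All 5 measured neuron markers were at least 2-fold higher in N3 than in ESC. TPH2 and TPH1, which encode the enzymes of the first step of serotonin synthesis, lay below the floor on all 5 arrays, and SLC6A4 and DDC were not analysed here. GATA3, which serotonin neurons share with many other cells, had 348 in ESC, 3911 in EB and 895 in N3. Of the other serotonin neuron markers, FEV had 113 in ESC, 89.6 in EB and 85.3 in N3. SLC18A2 had 86.9, 189 and 150 and GATA2 had 108, 203 and 107 on the same arrays. FEV, SLC18A2 and GATA2 were called in no comparison. Markers of other cell types were also measured: the summed signal of 3 endothelial markers was 10916 in EB against 3245 in ESC, that of 4 heart muscle markers was 25315 against 11146, and that of 4 endoderm markers was 48116 against 1827. Summed over 7 fibroblast and matrix markers it was between 34657 and 57183 on the 5 arrays, with opposite courses inside the sum. From ESC to EB LUM went from 46.0 to 17532 and DCN from 13.8 to 7189, and both stayed high, while TAGLN went from 35825 to 4660, THY1 from 5443 to 628 and COL3A1 from 533 to 100.4. The signal of mouse feeder RNA on the ESC array was not measured. The ratio of the 3′ to the 5′ actin probe sets, a measure of RNA quality, was 1.73 in ESC, 15.2 in EB, then 5.43, 25.2 and 8.63 in N1, N2 and N3. The same ratio for GAPDH was 1.94 in ESC, 2.78 in EB, then 1.69, 7.10 and 2.10 in N1, N2 and N3.

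Chromatin genes were widely detected. The brightest probe set was chosen from 219 for the 101 genes and from 24969 for all 14132 named genes. The part of this choice in the shares detected was not tested. Of the 101 genes, 86 (85.1%) lay above the floor on all 5 arrays, against 59.2% of all named genes, 97 reached it on some array, and 4 on none. Those 4 were DNMT3L, the catalytically inactive partner of the de novo DNA methyltransferases, the histone H4 methyltransferase KMT5C, the arginine methyltransferase PRMT8 and the katanin family gene KATNAL2. In none of the 5 comparisons were 54 genes called, while 47 were called in at least 1. JARID2, KDM4A and PRDM6 were called in 3 comparisons each. The same counts over all named genes are not given here, so these counts do not set the chromatin genes apart.

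From ESC to EB, 9 of 96 measured chromatin genes (9.38%) were at least 2-fold higher and 9 were at least 2-fold lower, against 12.1% and 11.8% of all measured genes. From EB to N1, 4 of 94 (4.26%) were higher and 2 (2.13%) were lower, against 5.15% and 2.20%. From N1 to N2, 6 of 94 (6.38%) were higher and 4 (4.26%) lower, against 5.06% and 6.53%. From N2 to N3, 4 of 94 were higher and 1 (1.06%) lower, against 4.78% and 2.19%. In these adjacent steps the shares of chromatin genes called lay near those of all genes. Adjacent comparisons share an array, so that a low value in EB appears as a decrease from ESC and as an increase to N1.

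Over the whole series the split was less even. In N3 against ESC, 23 of 97 chromatin genes (23.7%) were at least 2-fold higher and 8 (8.25%) at least 2-fold lower, against 17.2% and 16.4% of all measured genes. The median log2 ratio was 0.22 for the chromatin genes and -0.13 for all genes. Among genes with a mean signal of 200 or more, which leaves 83 chromatin genes, 23 (27.7%) were higher and 6 (7.23%) lower, against 19.5% and 16.8%. With EB as the starting array, chosen after the data were seen, 15 of 94 (16.0%) were higher and 7 (7.45%) lower, against 13.0% and 11.2%. When, in place of the brightest probe set, a gene was given the median of all its probe sets on each array, 15 of 90 were higher and 7 lower, against 14.1% and 17.2% of all genes, and the median log2 ratio was -0.09, against -0.19.

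The scaling between arrays moved the adjacent comparisons. Scaling to equal medians gave 24 of 96 higher and 5 lower in EB against ESC, where all genes gave 23.9% and 5.98%. It gave 1 of 94 higher and 6 lower in N1 against EB (all genes 2.68% and 8.06%) and 10 of 94 higher and 3 lower in N2 against N1 (all genes 6.25% and 5.17%). Scaling to the hybridisation controls, which are spiked into every sample, gave 15 of 94 higher and 1 lower in N1 against EB (all genes 13.8% and 0.691%) and 0 of 94 higher and 17 lower in N2 against N1 (all genes 1.71% and 23.3%). Quantile normalisation gave 11 of 96 higher and 8 lower in EB against ESC (all genes 12.6% and 10.5%) and 3 and 3 of 94 in N1 against EB (all genes 3.36% and 3.09%). In N3 against ESC it gave 21 of 97 higher and 12 lower, where all genes gave 16.3% and 19.2%. Under the hybridisation controls N3 against ESC gave 26 of 97 higher and 5 lower, where all genes gave 21.0% and 12.0%. In the adjacent steps given here the counts of chromatin genes thus moved in the same direction as the shares of all genes. The size of the move could differ. With equal medians in N2 against N1, chromatin genes called higher went from 6.38% to 10.6%, and all genes from 5.06% to 6.25%. These scalings moved the median of all genes too, to 0.41 in EB against ESC and -0.37 in N1 against EB with equal medians, and to 0.41 in N1 against EB, -0.57 in N2 against N1 and 0.17 in N3 against N2 with the controls.

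**Figure D1:**
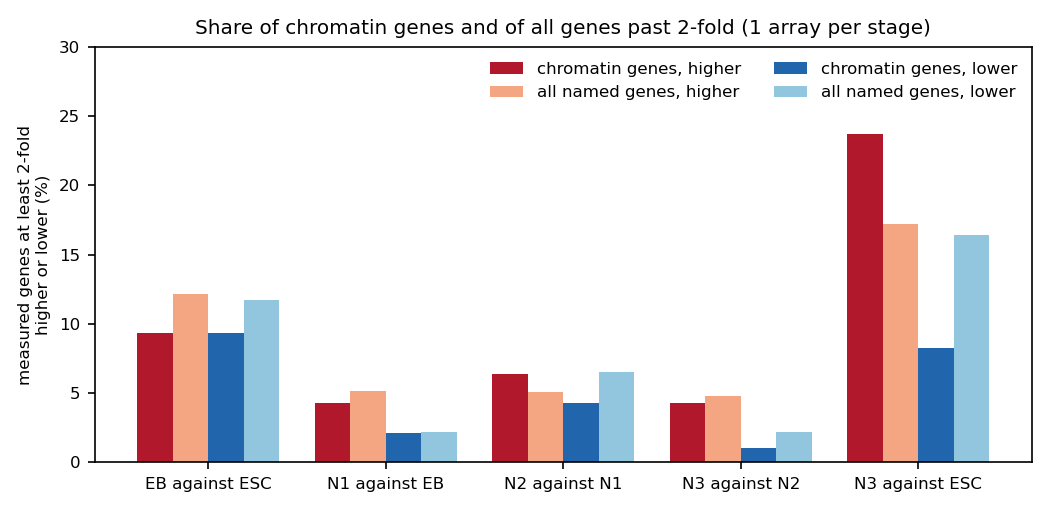
Share of measured genes at least 2-fold higher (red) or lower (blue) in each comparison, for the 101 chromatin genes (dark bars) and all named genes (light bars), in percent, with 1 array per stage. In N3 against ESC the chromatin genes stand at 23.7% higher and 8.25% lower, and all genes at 17.2% and 16.4%.

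The peak of expression lay late for many of the genes. Of the 86 chromatin genes above the floor on all arrays, 26 (30.2%) had the highest signal in N3, against 18.2% of the 8368 such genes in all, and 20 (23.3%) in ESC, against 33.7%. The lowest signal fell in ESC for 36 (41.9%), against 30.8%. Signals rose at every step in 8 genes (9.30%, against 4.42%), namely CHD6, KAT6A, KAT8, KATNBL1, KDM5A, KMT5B, PRDM10 and PRMT2, and fell at every step in CBX3, HDAC3 and SMARCC1 (3.49%, against 6.56%). The size of the excursions was ordinary, with a median ratio of highest to lowest signal of 2.12 against 2.10 for all such genes.

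**Figure D2:**
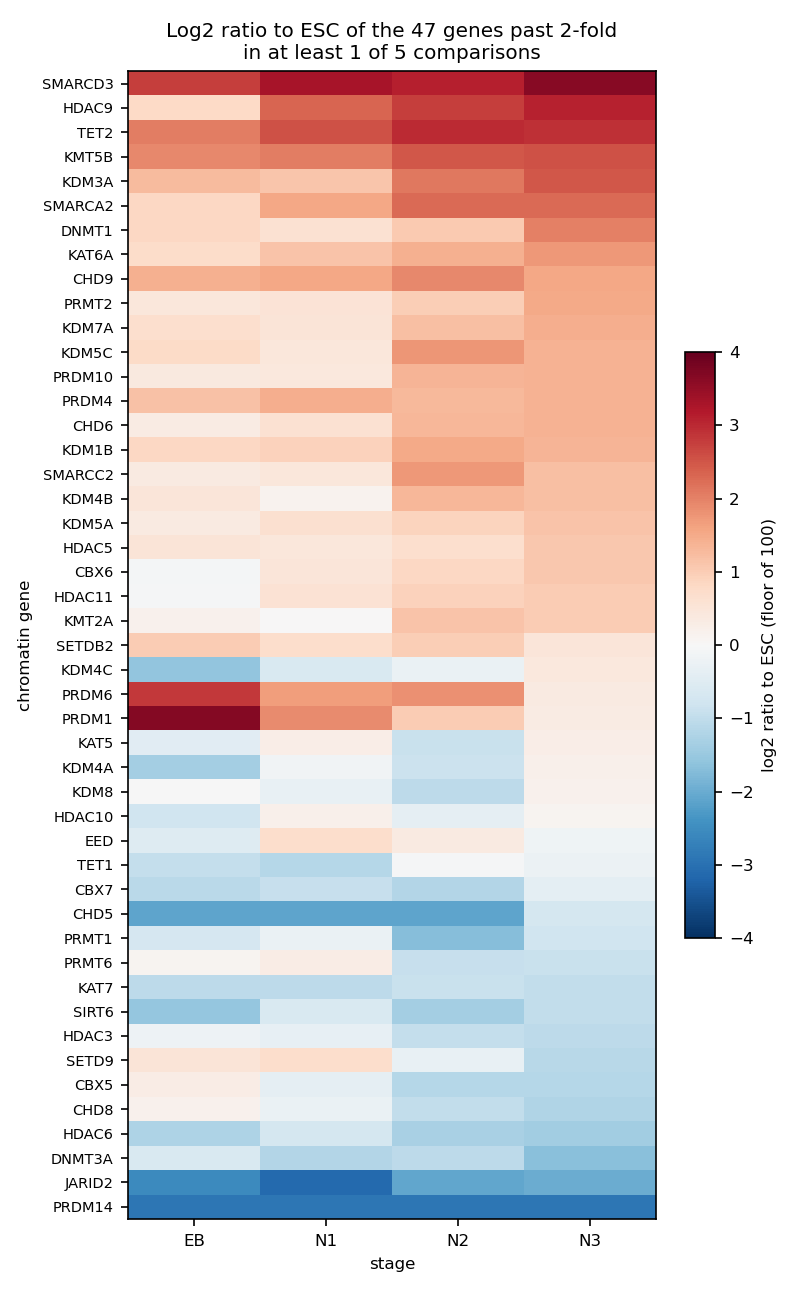
Log2 ratio to ESC (colour, from -4 to 4) in EB, N1, N2 and N3 for the 47 chromatin genes called in at least 1 of the 5 comparisons, with signals under 100 set to 100 and genes sorted by N3 against ESC. SMARCD3, HDAC9 and TET2 are at the top, JARID2 and PRDM14 at the bottom, and PRDM1 and PRDM6 are darkest in EB.

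Among the DNA methylation genes, TET2 was higher after the ESC stage and DNMT3A lower. DNMT3A, a de novo methyltransferase, had a signal of 4439 in ESC, 2919 in EB, then 1956, 2127 and 1406 in N1, N2 and N3, highest in ESC and 3.16-fold lower in N3. A second DNMT3A probe set gave a log2 ratio of -1.50 for the same pair of arrays. DNMT1, the maintenance methyltransferase that copies methylation after replication, gave 131 in ESC, 234 in EB, then 199, 272 and 531 in N1, N2 and N3, a 4.07-fold difference between the end stages. Its ESC signal lay close to the floor and DNMT1 had a single probe set. Over the same arrays 7 of 9 markers of dividing cells were at least 2-fold lower in N3 than in ESC, their summed signal was 59675 in ESC, 54064 in EB, then 44058, 34567 and 25661 in N1, N2 and N3, and the part of cell division in the DNMT values was not tested.

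The TET enzymes, which oxidise methylcytosine, did not follow a common course. TET2 gave 270 in ESC, 1108 in EB, then 1588, 2120 and 2057 in N1, N2 and N3. ESC was the low array, 4.11-fold below EB and 7.63-fold below N3. The other TET2 probe set had 17.6 in ESC and 109 in N3 and so gave a log2 ratio of at least 0.12. TET1 gave 3732 in ESC, 1921 in EB, then 1688, 3614 and 3202 in N1, N2 and N3, a dip in EB and N1 followed by a 2.14-fold step up to N2. The second TET1 probe set had a log2 ratio of 0.88 at that step. TET3 gave 1305 in ESC, 718 in EB, then 769, 1265 and 1917 in N1, N2 and N3, lowest in EB and N1 as TET1 was, and called in none of the 5 comparisons. Of 5 measured DNA methylation genes 2 were at least 2-fold higher and 1 lower in N3 than in ESC, with a median log2 ratio of 0.55. Of all measured genes 17.2% were higher and 16.4% lower.

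In Polycomb complex 2, the accessory subunit JARID2 was the only gene of 4 called in N3 against ESC, where 16.4% of all genes were called lower. JARID2, which helps to recruit the complex to its targets, gave 11220 in ESC, 1903 in EB, then 1306, 2633 and 2818 in N1, N2 and N3. It was 5.90-fold lower in EB than in ESC, then 2.02-fold higher in N2 than in N1, and stayed 3.98-fold below ESC in N3. The second JARID2 probe set gave 6759, 2365, 1445, 2782 and 2939 in the same order, the same course with a smaller first step.

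The core subunits were less changed between the end stages. EED, which binds the methylated histone, gave 1644 in ESC, 1141 in EB, then 2691, 2120 and 1462 in N1, N2 and N3. Its high array was N1, 2.36-fold above EB, and ESC and N3 were close. SUZ12, a scaffold subunit, gave 2964 in ESC, 5488 in EB, then 3112, 4909 and 3242 in N1, N2 and N3. It was highest in EB and N2 without a call, and a dimmer SUZ12 probe set gave 299 in ESC and no signal above the floor later. EZH1, one of the alternative catalytic subunits, gave 374 in ESC, 298 in EB, then 219, 286 and 375 in N1, N2 and N3, equal at both ends with a log2 ratio of 0.00. EZH2 was not analysed here.

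The CBX readers had a median log2 ratio of -0.47 in N3 against ESC. Of 6, 1 (16.7%) was at least 2-fold higher and 1 lower, against 17.2% and 16.4% of all genes. CBX7, a Polycomb complex 1 reader, gave 332 in ESC, 158 in EB, then 176, 147 and 253 in N1, N2 and N3, with a 2.10-fold drop from ESC to EB. CBX2, another Polycomb reader, gave 217 in ESC, 146 in EB, then 106, 173 and 173 in N1, N2 and N3 and was not called. Its second probe set gave 368 in ESC and 110 in N3, a log2 ratio of -1.74. CBX5, the heterochromatin protein HP1 alpha, gave 1304 in ESC, 1596 in EB, then 1010, 597 and 587 in N1, N2 and N3. CBX5 was 2.22-fold lower at the end, with most of the difference between EB and N2. CBX6, a Polycomb reader, gave 1429 in ESC, 1345 in EB, then 1978, 2533 and 3011 in N1, N2 and N3, was 2.11-fold higher at the end, and was thus the 1 CBX gene with a rise.

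**Figure D3:**
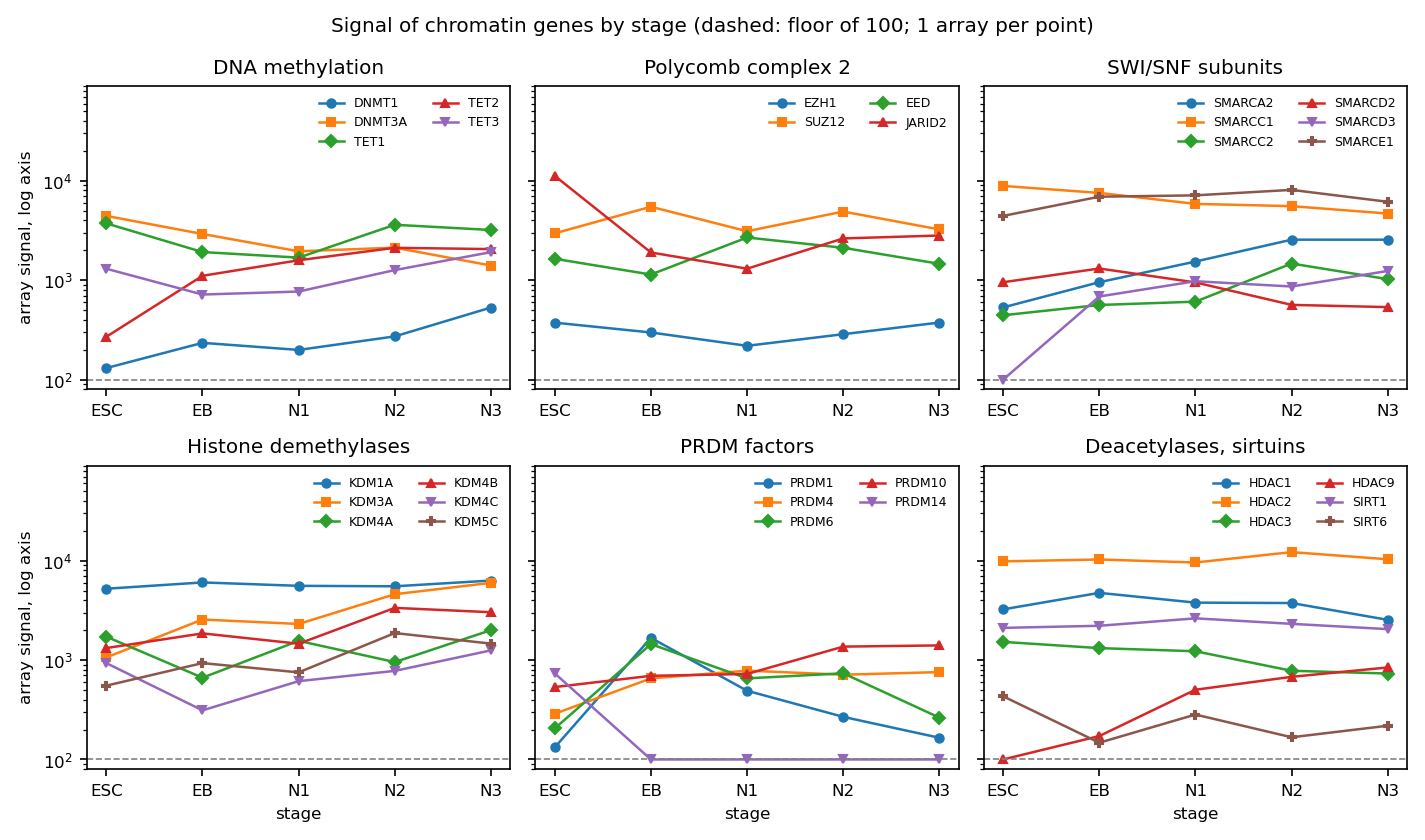
Signal (log axis, values under 100 drawn at 100) at ESC, EB, N1, N2 and N3 for selected chromatin genes of 6 roles, 1 array per point, with the floor as a dashed line. JARID2 drops from 11220 to 1903 between ESC and EB, PRDM1 and PRDM6 peak in EB, and KDM3A climbs from 1063 to 5984, while KDM1A and HDAC2 stay nearly level.

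Among the histone lysine methyltransferases of the KMT and SETD families, 2 of 15 measured (13.3%) were at least 2-fold higher and 1 (6.67%) lower in N3 against ESC, against 17.2% and 16.4% of all genes, with a median log2 ratio of 0.23. KMT5B, which methylates histone H4, gave 540 in ESC, 2032 in EB, then 2242, 3033 and 3142 in N1, N2 and N3. It was low in ESC only, 3.76-fold below EB and 5.82-fold below N3. Its other probe sets gave log2 ratios of 2.75 and 0.26 for N3 against ESC. KMT2A, the MLL protein that methylates histone H3 at active promoters, gave 1602 in ESC, 1811 in EB, then 1604, 3568 and 3269 in N1, N2 and N3, a 2.22-fold step between N1 and N2. It had 11 probe sets, and the ratio of their medians on the 2 arrays was -0.31 on the log2 scale, opposite to the brightest. SETDB2, an H3 methyltransferase family member, gave 280 in ESC, 565 in EB, then 455, 558 and 390 in N1, N2 and N3 and was 2.02-fold higher in EB than in ESC. SETD9 gave 438 in ESC, 624 in EB, then 715, 356 and 202 in N1, N2 and N3. It was lowest in N3, 2.17-fold below ESC, although a dimmer probe set gave 0.17 on the log2 scale. The flattest gene of the set, SETD4, ranged 1.19-fold over the 5 arrays.

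The PRDM factors, zinc finger proteins with a domain related to the SET methyltransferases, included 1 gene detected in ESC alone and a pair of genes that peaked in EB. PRDM14, a repressor that guards pluripotency and germ cell fate, gave 735 in ESC, 62.8 in EB, then 64.6, 42.6 and 57.1 in N1, N2 and N3. It was above the floor in ESC alone and at least 7.35-fold lower in each of EB and N3. PRDM1 (BLIMP1), a repressor known from plasma cells, germ cells and endoderm, gave 132 in ESC, 1673 in EB, then 491, 268 and 165 in N1, N2 and N3. PRDM6, a repressor known from smooth muscle, gave 205 in ESC, 1446 in EB, then 654, 736 and 264 in N1, N2 and N3. Both were peaks in EB, 12.7-fold above ESC for PRDM1 and 7.05-fold for PRDM6, and both were lower again in N1, by 3.41-fold and 2.21-fold. PRDM6 was a further 2.79-fold lower in N3 than in N2, and a second PRDM1 probe set went from 9.19 in ESC to 264 in EB.

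The EB array was also the high array of all 3 endothelial markers and of the endoderm markers APOA1, FGB and FOXA2. The PRDM1 and PRDM6 values stand next to these, while the endoderm marker AFP was highest in ESC, at 991 against 601 in EB. All 3 endothelial markers were at least 2-fold higher in EB than in ESC, and their summed signal was 3245 in ESC, 10916 in EB, then 5796, 3266 and 1572 in N1, N2 and N3. Of 4 endoderm markers 3 were higher in EB, with sums of 1827 in ESC, 48116 in EB, then 33169, 8995 and 1289 in N1, N2 and N3. Of 4 heart muscle markers 3 were higher in EB, with sums of 11146 in ESC, 25315 in EB, then 15561, 11458 and 25886 in N1, N2 and N3. ACTC1, which other cells also make, was 10670 of the sum in ESC and 20334 of it in N3, and MYL7 was 5.20-fold and MYH6 2.03-fold lower in N3 than in EB. The part of these cell types in the PRDM values was not tested.

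Other PRDM genes were higher later in the culture. PRDM4, a zinc finger protein that binds a neurotrophin receptor, gave 288 in ESC, 654 in EB, then 783, 712 and 757 in N1, N2 and N3, with 2.27-fold of its 2.62-fold difference already reached in EB. PRDM10 gave 535 in ESC, 694 in EB, then 724, 1365 and 1404 in N1, N2 and N3, also 2.62-fold higher at the end but with its largest step between N1 and N2. PRDM8, PRDM11 and PRDM15 were called in no comparison. Each of the called PRDM genes other than PRDM1 had 1 probe set.

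The arginine methyltransferases had a median log2 ratio of -0.63 in N3 against ESC. Of 6 measured, 5 were below 0, as were 6295 of 11232 measured genes, and 1 (16.7%) was called higher, against 17.2% of all genes. PRMT1, which carries out most asymmetric arginine dimethylation, gave 13361 in ESC, 8350 in EB, then 11138, 4079 and 7630 in N1, N2 and N3, with N2 the low array, 2.73-fold below N1. Its other probe sets gave log2 ratios of -0.16, 0.73 and 1.40 at that step. PRMT6, a nuclear family member, gave 208 in ESC, 223 in EB, then 253, 111 and 113 in N1, N2 and N3, with a 2.29-fold drop between N1 and N2 that ended near the floor. PRMT2, a member described as a coactivator of nuclear receptors, gave 1184 in ESC, 1620 in EB, then 1738, 2325 and 3407 in N1, N2 and N3. It was higher at each stage, 2.88-fold at the end, and was the 1 gene of its family with a call upwards. Another PRMT2 probe set gave a log2 ratio of -0.43, and the remaining ones 1.37 and 1.72.

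Of the histone demethylases, 6 were called in N3 against ESC and 8 were not. All 14 measured KDM genes had a log2 ratio above 0, against 4937 of 11232 measured genes. The 6 calls were all upwards, where 17.2% of all genes were called higher, and the median was 0.71 against -0.13 for all genes. The same 14 of 14 were above 0 under quantile normalisation, equal medians and hybridisation controls, with medians of 0.68, 0.81 and 0.91. With the median of each gene's probe sets, 13 of 14 were above 0, with a median of 0.48. In that setting 5 were at least 2-fold higher, where all genes gave 14.1%. Of these 14 genes KDM6B was above the floor in N3 alone, at 127, so that its log2 ratio of at least 0.35 could only be above 0. From EB to N1, 5 of 13 measured KDM genes were above 0, against 4983 of 10335 measured genes.

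KDM3A, an oxygen-dependent histone H3 demethylase, had the largest difference of the family and gave 1063 in ESC, 2559 in EB, then 2308, 4598 and 5984 in N1, N2 and N3. It was 2.41-fold higher in EB and 5.63-fold higher in N3 than in ESC. A second probe set gave a log2 ratio of 2.51 for the end stages and a further one -0.60. KDM7A gave 293 in ESC, 468 in EB, then 417, 675 and 800 in N1, N2 and N3, and KDM1B, the second flavin-dependent demethylase, gave 385 in ESC, 676 in EB, then 736, 1094 and 995 in N1, N2 and N3. Both were lowest in ESC, by 2.73-fold and 2.59-fold against N3. The other KDM7A probe set gave 0.75 on the log2 scale. The 3 dimmer KDM1B probe sets gave 0.28, -0.70 and 0.29.

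KDM4B, KDM5C and KDM5A were also higher at the end. KDM4B gave 1321 in ESC, 1855 in EB, then 1460, 3350 and 3029 in N1, N2 and N3, a 2.30-fold step from N1 to N2 and 2.29-fold over the series. Its 3 other probe sets gave log2 ratios of 2.66, 1.80 and 1.48 for N3 against ESC. KDM5C, an X-linked demethylase needed for normal cognition, gave 553 in ESC, 932 in EB, then 752, 1870 and 1463 in N1, N2 and N3, with a 2.49-fold step from N1 to N2 and a 2.65-fold difference in all. KDM5A gave 1180 in ESC, 1505 in EB, then 1853, 2167 and 2591 in N1, N2 and N3, higher at each stage and 2.20-fold in all. Its 2 other probe sets gave 1.23 and 1.55.

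The remaining named demethylases were level or dipped. KDM1A (LSD1), the catalytic subunit of the CoREST complex, gave 5220 in ESC, 6039 in EB, then 5584, 5523 and 6310 in N1, N2 and N3 and ranged only 1.21-fold. KDM4C gave 932 in ESC, 312 in EB, then 613, 779 and 1252 in N1, N2 and N3, lowest in EB, 2.99-fold below ESC. KDM8 gave 204 in ESC, 204 in EB, then 168, 67.8 and 232 in N1, N2 and N3, below the floor in N2 alone and at least 2.32-fold higher in N3. KDM4A gave 1719 in ESC, 664 in EB, then 1561, 954 and 2001 in N1, N2 and N3. It alternated, with low arrays EB and N2 and calls of 2.59-fold lower, 2.35-fold higher and 2.10-fold higher in EB against ESC, N1 against EB and N3 against N2, and its second probe set alternated the same way, with 1174, 451, 836, 500 and 1339.

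The 2 arrays on which KDM4A was low were those with the highest actin 3′ to 5′ ratios. Of the 86 chromatin genes above the floor on all arrays 9 (10.5%) were lower in EB and N2 than in the neighbouring stages, against 12.3% of all such genes. These were CBX7, HDAC10, KAT5, KDM3B, KDM4A, KMT2B, PRMT1, SIRT6 and SIRT7. The opposite course, higher in EB and N2, was seen in 18 genes (20.9%) against 13.4%, among them KDM4B, KDM5C, KMT2A, HDAC2 and SUZ12. The part of RNA quality in either course was not tested.

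Of 5 measured acetyltransferases, KAT6A alone was called between the end stages, where 17.2% of all genes were called higher. KAT6A (MOZ), needed for blood and neural stem cells, gave 1487 in ESC, 2457 in EB, then 3294, 3995 and 4959 in N1, N2 and N3. It was higher at each stage, 3.34-fold in all, and its second measured probe set gave a log2 ratio of 1.56. KAT7 (HBO1), which acts at replication origins, gave 2580 in ESC, 1251 in EB, then 1252, 1403 and 1307 in N1, N2 and N3, high in ESC and 2.06-fold lower in EB. KAT5 (TIP60) gave 601 in ESC, 436 in EB, then 718, 321 and 720 in N1, N2 and N3. Its low array was N2, 2.24-fold below each of N1 and N3. KAT2A and KAT8 were called in no comparison.

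Among the deacetylases, 3 of 9 measured were at least 2-fold higher and 2 (22.2%) lower in N3 against ESC, against 17.2% and 16.4% of all genes. HDAC2 gave 9838 in ESC, 10279 in EB, then 9586, 12192 and 10330 in N1, N2 and N3, a range of 1.27-fold. HDAC1, its partner in Sin3 and NuRD complexes, gave 3236 in ESC, 4745 in EB, then 3784, 3747 and 2538 in N1, N2 and N3 with no call. The second HDAC1 probe set gave 2201, 605, 1595, 295 and 788, lowest in EB and N2. HDAC3, the enzyme of the NCoR corepressor, gave 1524 in ESC, 1319 in EB, then 1226, 780 and 732 in N1, N2 and N3, lower at each stage and 2.08-fold in all.

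HDAC9, a class IIa enzyme that binds MEF2 factors and is abundant in muscle and brain, gave 88.0 in ESC, 172 in EB, then 503, 678 and 843 in N1, N2 and N3. It lay below the floor in ESC, was 2.92-fold higher in N1 than in EB, and at least 8.43-fold higher in N3 than in ESC. Its 2 other probe sets lay below the floor on all arrays. The summed signal of 5 neuron markers was 5199 in ESC, 3790 in EB, then 21998, 31428 and 53058 in N1, N2 and N3. The lower sum in EB came from TUBB3, with 3684 in ESC and 663 in EB. Of the 5 markers, 3 were at least 2-fold higher in EB than in ESC and 1, TUBB3, was lower. The part of neurons in the HDAC9 values was not tested. HDAC5, also class IIa, gave 685 in ESC, 984 in EB, then 948, 1095 and 1453 in N1, N2 and N3, 2.12-fold higher at the end, where a dimmer probe set gave a log2 ratio of 0.22.

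HDAC11, the class IV enzyme, gave 251 in ESC, 244 in EB, then 373, 472 and 513 in N1, N2 and N3, 2.04-fold higher at the end. A dimmer HDAC11 probe set gave -0.83 on the log2 scale. HDAC6, a tubulin deacetylase, gave 263 in ESC, 111 in EB, then 162, 107 and 98.4 in N1, N2 and N3, 2.37-fold lower in EB than in ESC and at least 2.63-fold lower in N3. Its second probe set went the other way, with 0.54. HDAC10, a polyamine deacetylase, gave 208 in ESC, 119 in EB, then 240, 162 and 222 in N1, N2 and N3 and was 2.01-fold higher in N1 than in EB. No signal of these 3 genes exceeded 513. Over all 9 deacetylases the median log2 ratio in N3 against ESC was 0.10, and -0.30 with the median of each gene's probe sets.

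Sirtuins, the NAD-dependent deacetylases, had no call between the end stages, where 17.2% of all genes were called higher and 16.4% lower. SIRT1 gave 2108 in ESC, 2212 in EB, then 2629, 2315 and 2048 in N1, N2 and N3, a range of 1.28-fold. SIRT6, which acts on chromatin at telomeres, gave 432 in ESC, 147 in EB, then 283, 167 and 219 in N1, N2 and N3, lowest in EB at 2.93-fold below ESC. The second SIRT6 probe set gave a log2 ratio of -1.24 at that step. Of 5 sirtuins 4 had a log2 ratio below 0 in N3 against ESC, as had 6295 of 11232 measured genes. The sirtuin median was -0.38.

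Among the SWI/SNF subunits was the largest difference between ESC and N3 of all 101 genes. SMARCD3 (BAF60c), a subunit known from heart and neural development, gave 15.8 in ESC, 686 in EB, then 977, 865 and 1240 in N1, N2 and N3. It lay below the floor in ESC and above it on all later arrays, at least 6.86-fold higher in EB and at least 12.4-fold higher in N3. SMARCD2, its paralogue, gave 955 in ESC, 1312 in EB, then 951, 565 and 537 in N1, N2 and N3, highest in EB and with no call against ESC. SMARCD1 was called in no comparison. Heart muscle markers MYL7, TNNT2 and MYH6 and the matrix markers LUM and DCN were likewise low in ESC. The heart muscle marker ACTC1 was not, with 10670 in ESC and 9360 in EB. Of the 7 fibroblast and matrix markers 2 were at least 2-fold higher in EB than in ESC and 4 were lower. The part of these cell types in the SMARCD3 values was not tested.

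SMARCA2 (BRM), one of the alternative ATPases of the complex, gave 533 in ESC, 955 in EB, then 1541, 2559 and 2558 in N1, N2 and N3. It was lowest in ESC and 4.80-fold higher in N3, and 3 of its 4 other probe sets gave log2 ratios of 2.71, 1.59 and 1.98 while the dimmest gave at least 0.04. SMARCA4, the other ATPase, was not analysed here. SMARCC2 (BAF170) gave 444 in ESC, 564 in EB, then 608, 1472 and 1025 in N1, N2 and N3, a 2.42-fold step from N1 to N2 and 2.31-fold in all. SMARCC1 (BAF155), the paralogous scaffold subunit, gave 8888 in ESC, 7559 in EB, then 5863, 5564 and 4685 in N1, N2 and N3, lower at each stage with a log2 ratio of -0.92 that was not called. Of its 4 other probe sets, all were below 0 for N3 against ESC. Over the 10 SMARC genes 3 were at least 2-fold higher and 0 lower, against 17.2% and 16.4% of all genes, with a median of 0.32, or 0.08 with the median of each gene's probe sets.

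Some partner subunits of BAF, which the symbol rule did not take, are known in progenitor and neuron forms. ACTL6A (BAF53a), the progenitor form, gave 4670 in ESC, 3820 in EB, then 4216, 2944 and 2591 in N1, N2 and N3, lowest at the end without a call. PHF10 (BAF45a), another progenitor subunit, gave 1860 in ESC, 1533 in EB, then 1286, 1054 and 675 in N1, N2 and N3, a log2 ratio of -1.46. SS18, a further one, gave 1761 in ESC, 1087 in EB, then 1069, 787 and 655 in N1, N2 and N3, a log2 ratio of -1.43. All 3 were lower in N3 than in ESC, as were 6295 of 11232 measured genes. PHF10 and SS18 were called lower, where 16.4% of all measured genes were. Of the 6 other SS18 probe sets, 5 were lower too.

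The neuron forms went the other way, with calls upwards in N3 against ESC, where 17.2% of all measured genes were called higher. ACTL6B (BAF53b) gave 40.2 in ESC, 6.23 in EB, then 10.3, 96.9 and 405 in N1, N2 and N3, above the floor in N3 alone, with a log2 ratio of at least 2.02. SS18L1 (CREST) gave 545 in ESC, 669 in EB, then 926, 1606 and 2055 in N1, N2 and N3, higher at each stage with a log2 ratio of 1.91. DPF1 and DPF3 were not analysed here. The summed signal of the neural progenitor markers PAX6, SOX2 and HES5 was 20494 in ESC and 3927 in EB. It was then 5636, 17840 and 20887 in N1, N2 and N3. SOX2 alone was 19736 of the sum in ESC and 14978 of it in N3, so the sum mostly follows SOX2. PAX6 had 753 in ESC and 3322 in N3, and HES5 had 5.26 and 2586. Of these 3 markers 2 were at least 2-fold higher in N3 than in ESC and 0 lower. The shares of progenitors and neurons in N3, which these sums and the neuron marker sums bear on, were not measured. Their part in the BAF partner values was not tested.

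**Figure D4:**
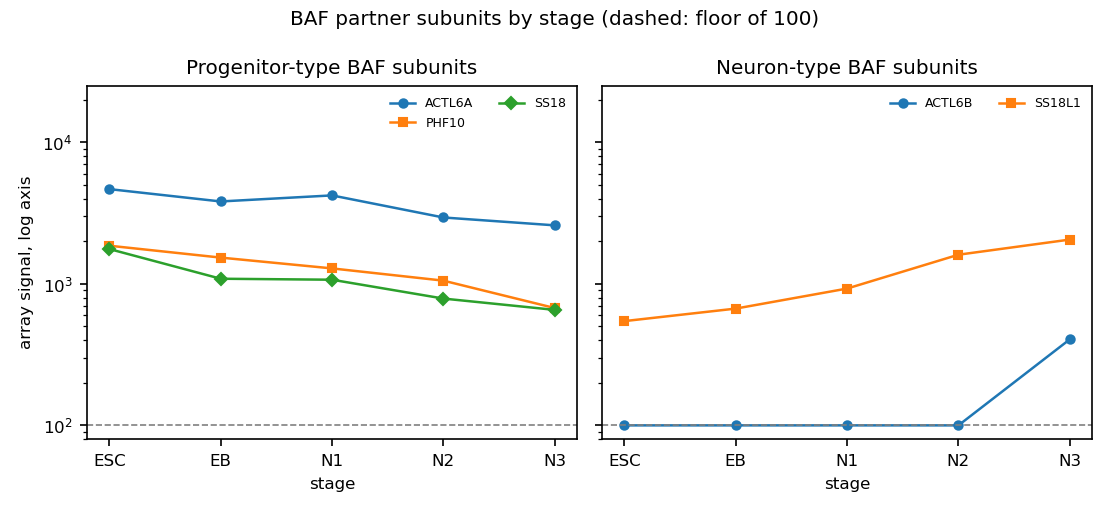
Signal (log axis, values under 100 drawn at 100, floor dashed) at each stage for BAF partner subunits known from progenitors (left) and neurons (right), 1 array per point. ACTL6A, PHF10 and SS18 are lowest in N3, SS18L1 climbs from 545 to 2055, and ACTL6B is above the floor in N3 only, at 405.

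Of the CHD remodellers, 2 of 7 measured (28.6%) were at least 2-fold higher and 1 (14.3%) lower in N3 against ESC. All genes gave 17.2% and 16.4%, and the median log2 ratio of the CHD genes was -0.15. CHD9 gave 2536 in ESC, 6810 in EB, then 7460, 9508 and 7394 in N1, N2 and N3, low in ESC only, 2.69-fold below EB and 2.92-fold below N3. Its other probe sets gave log2 ratios of 1.25 and 0.95 for the end stages. CHD6 gave 1254 in ESC, 1586 in EB, then 1906, 3164 and 3252 in N1, N2 and N3, 2.59-fold higher at the end. Of the dimmer CHD6 probe sets, the 3 above the floor disagreed with each other, with 1.18, -1.36 and -1.71. Taking the median probe set signal on each array first gave -1.71. CHD8, a remodeller linked to autism, gave 3816 in ESC, 4329 in EB, then 3205, 1939 and 1642 in N1, N2 and N3, 2.32-fold lower at the end, and its second probe set gave 0.32. CHD5, a neuronal member that joins NuRD complexes, gave 427 in ESC, 59.9 in EB, then 24.7, 53.3 and 261 in N1, N2 and N3. It was above the floor at both ends only, at least 4.27-fold lower in EB than in ESC and at least 2.61-fold higher in N3 than in N2. CHD4 was not analysed here. None of the 3 measured katanin family genes was called in any comparison.

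Because no stage was replicated, the other probe sets of a gene are the one check within these data, and they are not replicates. Of the 31 chromatin genes called in N3 against ESC, 22 had another measured probe set, with 44 such probe sets in all. Of these 44, 34 had the same direction and 18 also passed 2-fold, so that 12 genes had a second probe set past 2-fold. In 4 genes every other probe set went the opposite way, and these were CHD8, HDAC6, HDAC11 and SETD9. In EB against ESC 6 of the 8 called genes with another probe set had one past 2-fold, against 0 of 3 in N1 against EB, 1 of 7 in N2 against N1 and 1 of 1 in N3 against N2. How far the 2 brightest probe sets of a gene disagreed, as an SD on the log2 scale, was 0.685 for the chromatin genes and 0.818 for all genes in N3 against ESC, and 0.639 and 0.753 in EB against ESC. JARID2, KDM3A, KMT5B and SMARCA2 had a second probe set past 2-fold in N3 against ESC, while SMARCD3, PRDM14, PRDM6 and DNMT1 had a single probe set each.

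The scaling, the floor and the choice of probe set also decided which calls held. In N3 against ESC 18 of the 31 calls kept their direction and stayed past 2-fold in all 8 alternatives to the scaling, floor or probe set, and these were TET2, DNMT1, DNMT3A, JARID2, CBX6, KMT5B, PRDM4, PRDM10, PRDM14, KDM3A, KDM4B, KDM5A, KDM5C, KDM7A, KAT6A, SMARCA2, SMARCD3 and CHD9. A further 11 fell short of 2-fold in at least 1 alternative, HDAC9, HDAC3, CBX5, CHD8 and PRMT2 among them, and CHD6 and KDM1B reversed when the median signal of their probe sets was taken on each array, although 3 of the 4 KDM1B probe sets had a ratio above 0. Of the 18, 7 had a single probe set (DNMT1, CBX6, PRDM4, PRDM10, PRDM14, KDM5C and SMARCD3), so the choice of probe set could not change them. A lower floor can only keep or widen a ratio. A floor of 50, no floor and omitting probe sets that may bind related transcripts changed none of 70 calls over the 5 comparisons. Holding in all 8 alternatives thus rested on the remaining ones. In EB against ESC 9 of 18 calls held in all 8, namely JARID2, KDM4C, KMT5B, PRDM1, PRDM4, PRDM6, PRDM14, SMARCD3 and TET2, and 5 of these 9 had a single probe set. Of the 6 calls in N1 against EB none did. In N2 against N1 KAT5 alone did, and in N3 against N2 KAT5 and PRDM6 did.

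**Figure D5:**
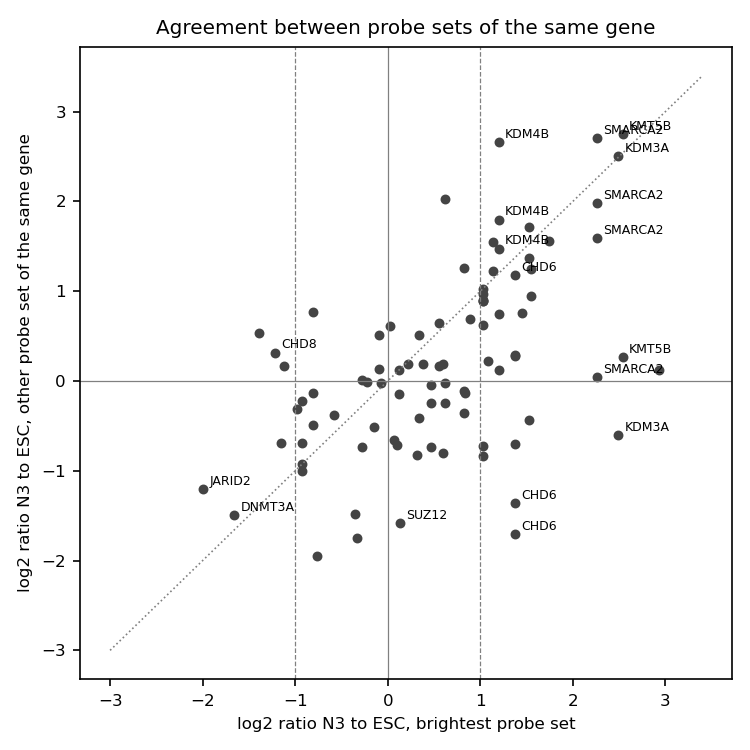
Log2 ratio of N3 to ESC from the brightest probe set of a chromatin gene (x axis) and from each other measured probe set of the same gene (y axis), 89 probe sets of 53 genes, with 2-fold limits dashed for the x axis and equality dotted. Of the 89, 60 have the same sign on both axes, among them SMARCA2, KDM4B and JARID2, and CHD6 and KDM3A each have points on either side of 0.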

How the data were processed

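RNA from 5 culture stages was measured on Affymetrix rhesus arrays, 1 array per stage. The values deposited by the authors are linear array intensities, 1 per probe set, already brought to a common level, with 2% trimmed means between 199.1 and 199.3. The submitters' processing notes name GCOS 1.0. Which signal algorithm, target and detection limits it was run with is not given in the sources used here. How far its summary and scaling shape low signals is therefore unknown.

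Intensities were rescaled to a 2% trimmed mean of 500 over non-control probe sets, floored at 100 and log2 transformed with Python 3.11.15, pandas 2.3.3 and numpy 2.4.6. Probe sets were named through the annotation GEO holds for this platform, which may be out of date. The arrays carry 52865 probe sets with 158 controls. The annotation lists 25330: 24969 with a single symbol were used, and 361 with several were not. Of the 101 chromatin genes, 100 matched a RefSeq gene by Entrez identifier with the same symbol. One further probe set, shared by TMEM88 and KDM6B, was not used. No sequences or coordinates were used here. The ratio script was tested on simulated data.

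The chromatin genes, the related genes, the markers and the naming rule were chosen with earlier results of these data known. Named are a core of regulators whatever their value, every chromatin gene past 2-fold with the brighter array at 200 or more, up to 10 related genes per comparison by the same limits, the BAF partners, and the markers. Of 123 related genes 88 had a probe set. The alternatives were 3 other scalings (quantile normalisation, equal medians, and 27 spiked-in hybridisation controls), a floor of 50 or 200, log2(signal + 1) without a floor, the median of each gene's probe sets per array, omitting probe sets whose names mark possible binding to related transcripts, and EB as the starting array. The number of arrays limits the precision.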

Additional observations from a re-analysis of the deposited data

How the results depend on the processing

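No paired analysis was possible because each stage had 1 array. Counts of chromatin genes that moved by more than 1.5 times, and medians that moved by more than 0.1 on the log2 scale, were these. Equal medians gave 24 higher, 5 lower and a median of 0.65 in EB against ESC, 1 higher, 6 lower and -0.42 in N1 against EB, 10 higher in N2 against N1, and -0.11 in N3 against N2. Hybridisation controls gave a median of 0.27 in EB against ESC, 15 higher, 1 lower and 0.41 in N1 against EB, 0 higher, 17 lower and -0.43 in N2 against N1, 8 higher and 0.20 in N3 against N2, and 5 lower and 0.38 in N3 against ESC. Quantile normalisation gave a median of 0.12 in N3 against ESC. A floor of 50 and no floor gave 7 higher each in N1 against EB, and a floor of 200 gave 2 higher in N3 against N2. The median over a gene's probe sets gave 15 lower and -0.15 in EB against ESC, 1 lower and 0.082 in N1 against EB, 1 higher and -0.039 in N2 against N1, and 15 higher and -0.086 in N3 against ESC. EB as the start gave 15 higher in N3.

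Reversals came only from other probe sets. With their median signal taken on each array, the log2 ratio was -1.71 for CHD6, -0.21 for KDM1B, 0.029 for BPTF, 1.47 for MBD2 and -0.14 for ASXL1 in N3 against ESC, -0.34 for KDM3A, 2.32 for MBD2 and -0.43 for ASXL1 in EB against ESC, 0.29 for PRMT1, -0.31 for KMT2A and 0.61 for EP400 in N2 against N1, and 0.061 for EP400 in N3 against N2. Without probe sets marked as binding related transcripts, EP400 gave -0.94 in EB against ESC, 0.72 in N3 against N2 and -0.22 in N3 against ESC. Of 70 results on single chromatin genes, 30 kept direction and call in every alternative, 35 lost the call in at least 1 and 5 reversed. The cause was not tested. Signals near the floor and the single array per stage limit all of these values.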

Other observations

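Related chromatin genes that the symbol rule did not take were called at shares near those of all genes in N3 against ESC. Of 85 measured in N3 against ESC, 16 (18.8%) were at least 2-fold higher and 12 (14.1%) lower, against 17.2% and 16.4% of all genes, with a median log2 ratio of 0.07. In EB against ESC 11 of 86 (12.8%) were higher and 7 (8.14%) lower, against 12.1% and 11.8%. In the 3 later steps no more than 2 were called in either direction, while all genes gave 2.19% to 6.53%. MTA2, a NuRD subunit, gave 112 in ESC, 450 in EB, then 510, 859 and 1107 in N1, N2 and N3. The log2 ratio of MTA2 between the end stages was 3.31, with an ESC signal close to the floor. MTA3, its paralogue, went the opposite way, with 5641 in ESC, 3117 in EB, then 2687, 2208 and 1272, a log2 ratio of -2.15. HELLS, a remodeller that aids DNA methylation, was lower at each stage, with 5131 in ESC, 3269 in EB, then 2554, 1972 and 1212. Its log2 ratio of -2.08 lay beside a median of -1.42 for the 9 markers of dividing cells.

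Among demethylases with other names, PHF2 gave 249 in ESC, 856 in EB, then 1264, 1806 and 2085, and HR gave 521 in ESC, 3240 in EB, then 3044, 2373 and 2571. Both were low in ESC, with log2 ratios of 3.07 and 2.30 in N3, while RIOX1 was lower in N3, with -1.08. RCOR3, a CoREST corepressor, was higher by a log2 ratio of 2.16. NSD3, a histone H3 methyltransferase, gave 1426 in ESC, 1331 in EB, then 2620, 2267 and 4859, a log2 ratio of 1.77. BCL11A, a BAF subunit and transcription factor of the brain, gave 716 in ESC, 122 in EB, then 501, 927 and 1324, so that EB was its low array. The brightest probe set of EP400, a TIP60 complex remodeller, gave 18.0 in ESC and 24445 in EB, whereas its other probe sets gave 213 and 772 in ESC and 111 and 801 in EB.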
